A study of Mus musculus with 5 samples.

Results

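The genes described here are the 4 adenosine receptors of the mouse and 6 genes that form, remove or transport adenosine. They were taken from the deposited count tables by gene symbol, which gave 10 genes of 55385: Adora1, Adora2a, Adora2b and Adora3 (receptors), Entpd1, Entpd2 and Nt5e (formation), and Adk, Ada and Slc29a1 (removal and transport). RNA of the hippocampus was sequenced from untreated control mice and from mice killed at 1, 4 or 8 h after the onset of seizures evoked by kainic acid, an agonist of glutamate receptors (20 mg/kg, intraperitoneal). All mice were C57/bl6 males aged 3 months, and by the methods of the study only animals with the strong seizures of stage 5 on a modified Racine scale were used. There was 1 library each for the untreated control, 1 h and 8 h, and 2 libraries for 4 h, called replicate 1 and replicate 2. No vehicle-injected control was among these libraries, so injection and seizure cannot be told apart.

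Adenosine is a breakdown product of ATP that dampens neuronal firing and is regarded as an endogenous anticonvulsant of the brain. Outside the cell, ectonucleotidases strip phosphates from ATP and ADP, and 5'-nucleotidase makes adenosine from AMP. Adenosine then acts on G protein-coupled receptors, of which the products of Adora1 and Adora3 inhibit adenylyl cyclase and those of Adora2a and Adora2b stimulate it, and it is cleared through nucleoside transporters, phosphorylation by adenosine kinase and deamination to inosine by adenosine deaminase.

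The gene counts of the libraries added up to 19100374 (control), 17744508 (1 h), 18250114 (4 h, replicate 1), 19109204 (4 h, replicate 2) and 16612225 (8 h). Levels are given as normalized CPM, gene counts scaled to a common library total with TMM factors in edgeR, and intervals on single libraries (exact Poisson for a level, exact binomial for a ratio, 95%) express nothing but counting error. The floor, set at 3 counts, was worth between 0.151 and 0.178 normalized CPM. Whether a library came from 1 mouse or a pool is not stated in the labels or methods, so p-values measure only the spread between these samples, which may be technical. For the comparisons by time that spread comes from the 4 h pair alone (1 residual degree of freedom), and the fit takes the unpaired libraries to vary as much as this pair. With the 4 kainic acid libraries as 1 group (3 residual degrees of freedom) it comes from all of them, and differences between times count as spread. Log2 fold changes from edgeR are given with a prior count of 2, which draws them towards no change. The SE printed beside them was worked back from the test statistic and the fold change without this prior count. It is thus an approximate error for the printed value.

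The summed normalized CPM of 10 seizure-response genes, among them Fos, Arc and Bdnf, was 519 in the control, 6928 at 1 h, 9976 in replicate 1 and 3441 in replicate 2 at 4 h, and 766 at 8 h. Homer1 was the most abundant gene of this list over the libraries, and none was at 0. At 4 h 7 of the 10 were at least 1.5-fold above the control in both libraries (all genes: 10.1%). The others were near the control in replicate 2: Egr1 (30.9 against 29.1 normalized CPM), Npas4 (4.92 against 3.92) and Nr4a1 (34.6 against 33.8). At 8 h 5 were at least 1.5-fold higher (all genes: 14.1%) and 2, Egr1 and Nr4a1, lower (8.94%). The 4 h replicates also stood apart in the RNA of tissue markers. Summed markers of the choroid plexus, the epithelium that makes cerebrospinal fluid, reached 4035 normalized CPM in the control, 1708 at 1 h, 30.4 in replicate 1 and 4316 in replicate 2 at 4 h, and 3124 at 8 h, with Ttr the most abundant of the 7 markers and none at 0. Markers of neurons summed to between 3675 normalized CPM at 8 h and 4406 in replicate 1, with Snap25 the most abundant, so the labelled brain tissue was present in every library.

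Ordered by level per length, Adora1 was the highest of the 10 genes in all 5 libraries, with between 32.5 and 40.9 normalized CPM per kb of exon. Adk came next in 4 libraries with 5.37 to 6.29 normalized CPM per kb, while at 8 h Slc29a1 (4.61 normalized CPM per kb) and Adk (4.15) had overlapping counting intervals. Adora3 was the lowest in all 5, with 0.0918 to 0.135 normalized CPM per kb. In the control the order was Adora1, Adk, Slc29a1, Entpd1, Adora2b, Entpd2, Nt5e, Ada, Adora2a and Adora3. The intervals of neighbours overlapped there between Entpd1 and Adora2b and along the low end from Nt5e to Adora3, so that these neighbours were not told apart at this depth. Ada moved most in this order, from rank 8 in the control to rank 5 in both 4 h libraries and rank 9 at 8 h.

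**Figure D1:**
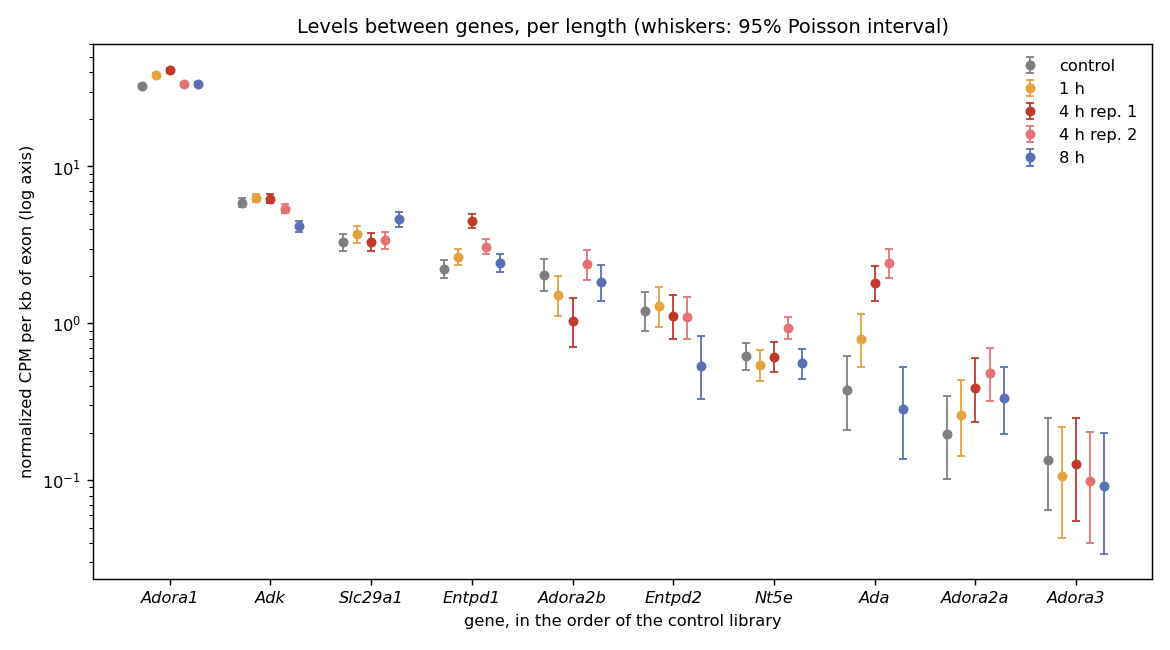
Normalized CPM per kb of exon (log axis) of the 10 genes in the order of the control library, with 1 point per library and 95% Poisson intervals. Adora1 lies between 32.5 and 40.9 and stands above all other genes, and Ada spans 0.285 to 2.43.

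With an adjusted p under 0.05 from the quasi-likelihood test of edgeR, Benjamini-Hochberg adjusted, 0 of the 9 genes that passed the expression filter were called at 1 h, 4 h or 8 h, or with the 4 kainic acid libraries taken as 1 group. Across all 19768 genes tested the share called was 0% at 1 h, 0.00506% at 4 h, 0% at 8 h and 0% for the 4 libraries together, so this test called next to no gene, while some other settings called more. The 1 gene called at 4 h was ETV3L, named here after its value was seen. An unadjusted p under 0.05 from edgeR was found for 478, 2291 and 892 genes at 1, 4 and 8 h, and for 454 with the 4 libraries together. DESeq2 called 56, 238, 33 and 13 genes in the same order and limma-voom 0 in each, and neither called an adenosine gene for which it gave an adjusted p. DESeq2 gave none for Adora2a in any comparison, for Adora2b at 1 h, or for Entpd2 and Ada at 1 h and with the 4 libraries together.

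By size alone, Ada was at least 1.5-fold higher than the control at 1 h, Adora2a and Ada in both libraries at 4 h, and Adora2a at 8 h, which is 1, 2 and 1 of 9 genes. Of all genes tested, 10.9%, 10.1% and 14.1% passed the same mark. On the lower side, 0 of the 9 genes lay at least 1.5-fold below the control at 1 h and 4 h, and at 8 h only Entpd2 did, against 9.2%, 6.28% and 8.94% of all genes. With so few genes these counts lie close to the background. Ada and Adora2a had 15 and 12 counts in the control, and how often genes with such counts pass this mark was not tested. The comparisons at the 3 times share the same control library.

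**Figure D2:**
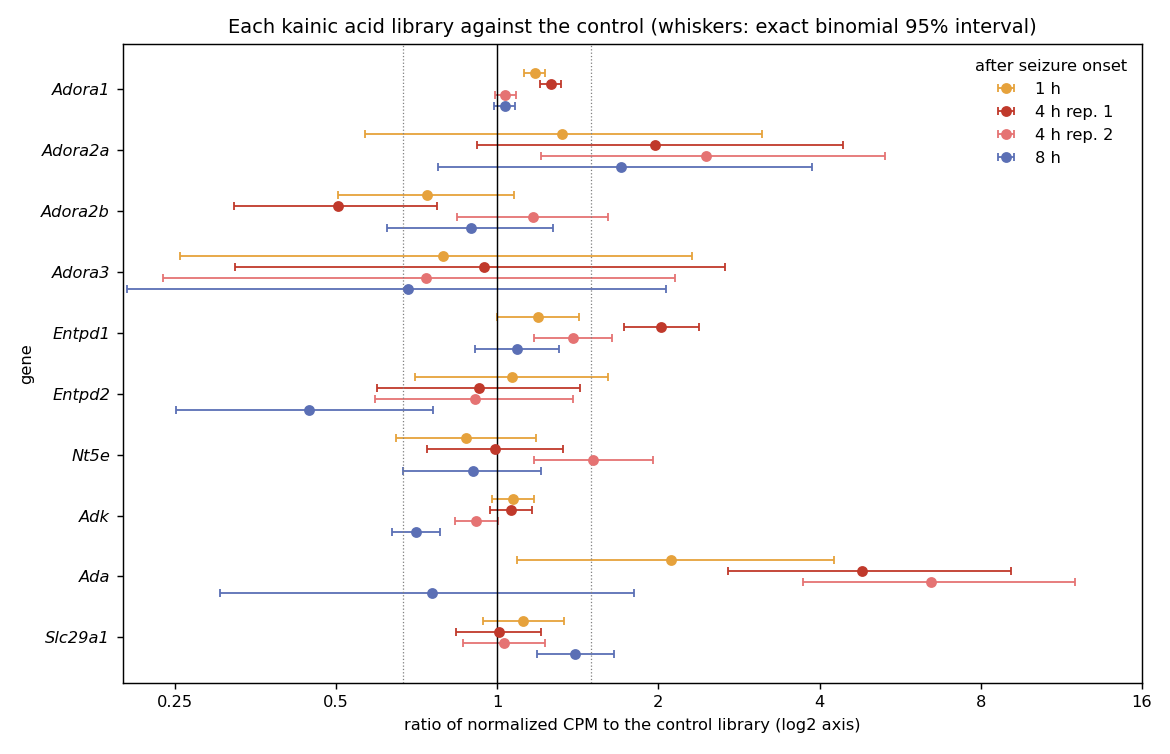
Ratio of each kainic acid library to the control library for the 10 genes (log2 axis), with exact binomial 95% intervals for counting error and dotted lines at 1.5-fold. Only Ada has both 4 h libraries far to the right (4.81 and 6.46), and its 8 h ratio is 0.757.

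Adora1 (ENSMUSG00000042429.8, chromosome 1 from 134199223 to 134235431 on the minus strand of GRCm38, 4 transcripts and 5785 bases of exon in GENCODE M21) encodes the A1 receptor, which inhibits transmitter release and is abundant in the hippocampus. Counts of 3741 (control), 3881 (1 h), 3987 (4 h, replicate 1), 3680 (4 h, replicate 2) and 3402 (8 h) correspond to 188, 221, 237, 195 and 194 normalized CPM. The control was the lowest library and replicate 1 the highest, and replicate 2 and the 8 h library lay close to the control. The ratio to the control was 1.17 at 1 h (95% interval 1.12 to 1.23) and 1.26 in replicate 1 (1.20 to 1.32), whereas the intervals of replicate 2 (0.989 to 1.08) and 8 h (0.985 to 1.08) include 1. Log2 fold changes were 0.23 ± 0.22 (SE) at 1 h, 0.20 ± 0.19 at 4 h and 0.05 ± 0.22 at 8 h, each close to or under its standard error. With scaling by library size alone, the value at 4 h was 0.07 and replicate 2 was at 0.983 of the control. Exons of Mybph on the opposite strand cover 20.1% of the exon length of Adora1, and Mybph itself had between 3 and 8 counts.

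Adora2a (ENSMUSG00000020178.6, chromosome 10 from 75316877 to 75334784 on the plus strand, 4 transcripts and 3062 bases of exon) encodes a stimulatory receptor of higher affinity, best known from striatal neurons. Counts of 12 (control), 14 (1 h), 20 (4 h, replicate 1), 28 (4 h, replicate 2) and 18 (8 h) correspond to 0.603, 0.797, 1.19, 1.48 and 1.03 normalized CPM. All 4 kainic acid libraries were above the control, and both 4 h libraries were the highest. The ratios to the control were 1.32, 1.97, 2.46 and 1.70, and only that of replicate 2 had an interval without 1 (1.21 to 5.30). At 4 h the log2 fold change was 1.02 ± 0.61 (SE), with an adjusted p of 0.522 by the quasi-likelihood test of edgeR, Benjamini-Hochberg adjusted (0.400 to 0.637 over 5 alternatives). Per kb of exon, Adora1 exceeded Adora2a 165-fold in the control (94.4 to 320), 147-fold at 1 h, 106-fold and 69.6-fold in replicates 1 and 2, and 100-fold at 8 h.

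Summed markers of the striatum, which lies close to the hippocampus, followed the same order of libraries as Adora2a, with 72.6 (control), 73.6 (1 h), 106 and 107 (4 h, replicates 1 and 2) and 76.0 (8 h) normalized CPM. Ppp1r1b was the most abundant of the 8 markers over the libraries, and none was at 0 in all libraries, although Six3 had at most 0.264 normalized CPM. Of the 7 markers tested, Drd1, Rgs9 and Penk were at least 1.5-fold above the control in both 4 h libraries, while Drd2, which marks the striatal neurons that carry the Adora2a receptor, was at 1.61, 1.71, 1.90, 1.75 and 0.913 normalized CPM. Several of these markers are also expressed in the hippocampus. The shared order is not firm: in a check chosen after seeing the data, it no longer held with Drd1, Ppp1r1b, Rgs9 or Penk left out of the sum. Without Penk the sums were 61.2, 55.8, 63.7, 83.6 and 65.3 normalized CPM. The part of these markers in the values of Adora2a was not tested. In bulk tissue, a change in the number of cells of a type and a change in RNA per cell cannot be told apart.

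Adora2b (ENSMUSG00000018500.2, chromosome 11 from 62248984 to 62266453 on the plus strand, 1 transcript and 1845 bases of exon) encodes a stimulatory receptor of low affinity. Counts of 75 (control), 49 (1 h), 32 (4 h, replicate 1), 83 (4 h, replicate 2) and 59 (8 h) correspond to 3.77, 2.79, 1.90, 4.39 and 3.37 normalized CPM. The 4 h replicates were the lowest and the highest of all libraries and lay on opposite sides of the control, with replicate 2 at 2.31 times replicate 1 (95% interval 1.52 to 3.59). At 4 h Adora2b had a log2 fold change of -0.25 ± 0.59 (SE), and it was 0.21 without replicate 1 and -0.95 without replicate 2, so that its sign rests on 1 library. The order of the 5 libraries by Adora2b was the same as their order by the summed choroid plexus markers. It ran from replicate 2 over the control, 8 h and 1 h to replicate 1. It held with any single marker left out, in a check chosen after seeing the data. Ttr made up most of the sum (3747 of 4035 normalized CPM in the control), so leaving out another marker could hardly move the order. Without Ttr it also held. Of the 7 markers, only Kcnj13 was higher in the control (37.8 normalized CPM) than in replicate 2 (33.9). Neighbours in the order by Adora2b had overlapping counting intervals. Only replicate 1 had a ratio to the control with an interval without 1 (0.323 to 0.772). The part of choroid plexus tissue in the Adora2b values was not tested.

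**Figure D3:**
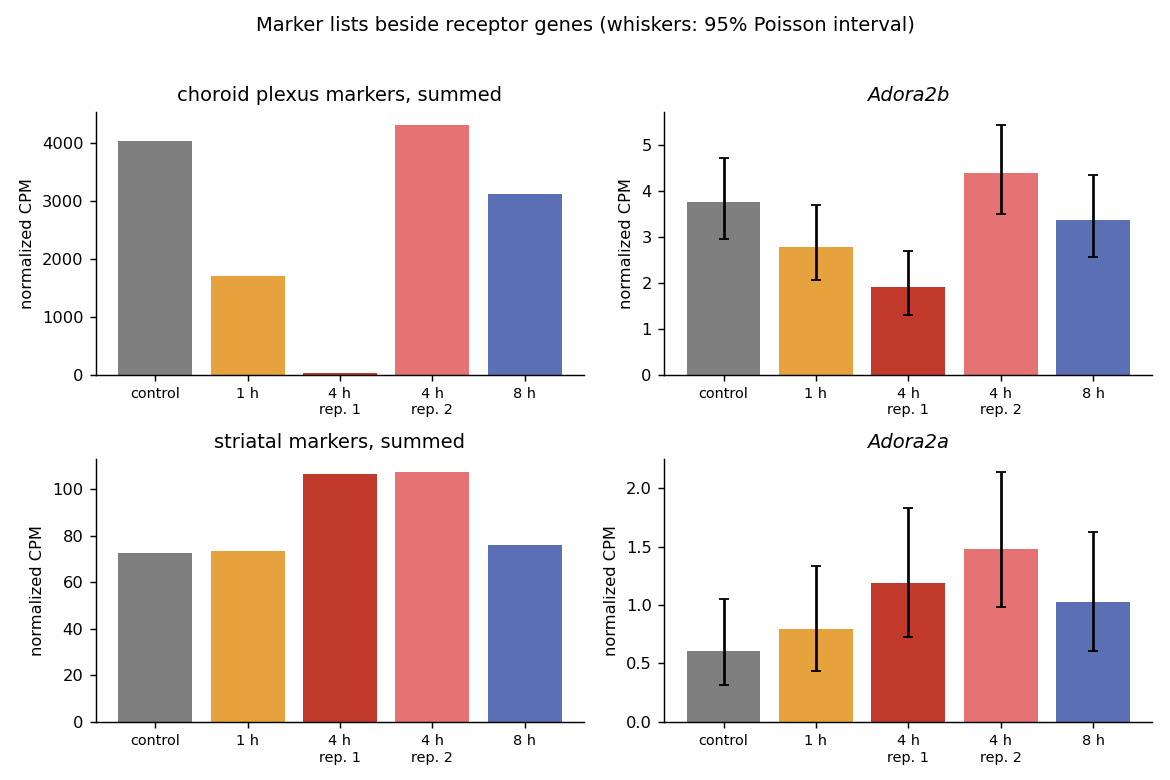
Normalized CPM of summed choroid plexus and striatal markers (bars, left) beside Adora2b and Adora2a (bars with 95% Poisson intervals, right) in each library. Choroid plexus markers are at 30.4 and Adora2b at 1.90 in replicate 1 at 4 h, and both are the lowest of their panels.

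Adora3 (ENSMUSG00000000562.5, chromosome 3 from 105870858 to 105908926 on the plus strand, 3 transcripts and 3729 bases of exon) encodes the A3 receptor and did not pass the expression filter. Its counts of 10 (control), 7 (1 h), 8 and 7 (4 h) and 6 (8 h) lay between 0.342 and 0.502 normalized CPM. The library intervals overlap throughout, and a difference was not detectable at this depth. Exons of Tmigd3 on the same strand cover 20.9% of its exon length. Tmigd3 had 0 to 3 counts, and how reads in the shared stretch were counted is not known.

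Among the genes of adenosine formation, Entpd1 (ENSMUSG00000048120.16, chromosome 19 from 40612366 to 40741602 on the plus strand, 11 transcripts and 5580 bases of exon) encodes CD39, which hydrolyses ATP and ADP to AMP and in the brain is known from microglia and vessels. Counts of 247 (control), 260 (1 h), 423 (4 h, replicate 1), 325 (4 h, replicate 2) and 237 (8 h) correspond to 12.4, 14.8, 25.1, 17.2 and 13.5 normalized CPM. Both 4 h libraries were above the other 3, and replicate 1 was at 1.46 times replicate 2 (95% interval 1.26 to 1.69). The ratio to the control was 2.02 in replicate 1 (1.73 to 2.38) and 1.38 in replicate 2 (1.17 to 1.64), and the intervals at 1 h and 8 h include 1. Its log2 fold change at 4 h was 0.76 ± 0.33 (SE), with an adjusted p of 0.446 from the quasi-likelihood test of edgeR, Benjamini-Hochberg adjusted (0.230 to 0.859 over 6 alternatives). It was 0.47 without replicate 1 and 1.01 without replicate 2.

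The 8 markers of microglia, none of them at 0, summed to 305 (control), 322 (1 h), 303 and 304 (4 h, replicates 1 and 2) and 305 (8 h) normalized CPM. Single markers lay on both sides of the control at 4 h, with log2 fold changes of 0.41 for C1qa, 0.42 for C1qb and -0.38 for Cx3cr1, and with P2ry12 lower in both libraries (13.9 and 17.8 against 31.9 normalized CPM). The 7 markers of endothelium, with Flt1 the most abundant over the libraries together and none at 0, gave 147, 132, 152, 114 and 149 normalized CPM in the order control, 1 h, replicate 1, replicate 2 and 8 h. In replicate 1 Cdh5 (18.1 against 5.33 normalized CPM in the control), Flt1 (70.2 against 40.1) and Pecam1 were above the control, while Tek, Kdr and Slco1a4 were at least 1.5-fold lower in both 4 h libraries. The part of either cell type in the Entpd1 values was not tested.

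Entpd2 (ENSMUSG00000015085.8, chromosome 2 from 25395874 to 25401321 on the plus strand, 3 transcripts and 2128 bases of exon) encodes an ectonucleotidase that prefers ATP over ADP. Counts of 51 (control), 48 (1 h), 40 (4 h, replicate 1), 44 (4 h, replicate 2) and 20 (8 h) correspond to 2.56, 2.73, 2.38, 2.33 and 1.14 normalized CPM. The 8 h library was the lowest and the other 4 lay close together. The 8 h ratio to the control was 0.445 (0.251 to 0.760), and the log2 fold change of -1.10 ± 0.55 (SE) had an adjusted p of 1 from the quasi-likelihood test of edgeR, Benjamini-Hochberg adjusted. This value rests on a single library at each end. Exons of Npdc1 on the same strand, with 91.3 to 117 normalized CPM, cover 28.8% of the exon length of Entpd2, and how reads in the shared stretch were counted is not given in the sources used here.

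Nt5e (ENSMUSG00000032420.8, chromosome 9 from 88327197 to 88372092 on the plus strand, 4 transcripts and 8602 bases of exon) encodes CD73, the 5'-nucleotidase that makes adenosine from AMP outside the cell. Counts of 106 (control), 82 (1 h), 89 (4 h, replicate 1), 152 (4 h, replicate 2) and 84 (8 h) correspond to 5.33, 4.67, 5.29, 8.04 and 4.79 normalized CPM. Replicate 2 was the highest library, at 1.51 times the control (1.17 to 1.95), and the others, replicate 1 included, lay at or below the control. Replicate 1 was at 0.658 of replicate 2, with an interval that ends at 0.860. The log2 fold change at 4 h, 0.32 ± 0.41 (SE), was smaller than its error, and it was -0.01 without replicate 2. Replicate 2 also had the highest summed markers of choroid plexus, oligodendrocytes, oligodendrocyte precursors, mural cells and striatum. Those of oligodendrocytes gave 3199 (control), 3994 (1 h), 3785 and 4876 (4 h, replicates 1 and 2) and 3199 (8 h) normalized CPM (6 markers, Mbp the most abundant, none at 0). In replicate 1 Nt5e was near the control (5.29 against 5.33 normalized CPM), while choroid plexus markers were at 30.4 against 4035. The part of any of these in the Nt5e values was not tested.

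**Figure D4:**
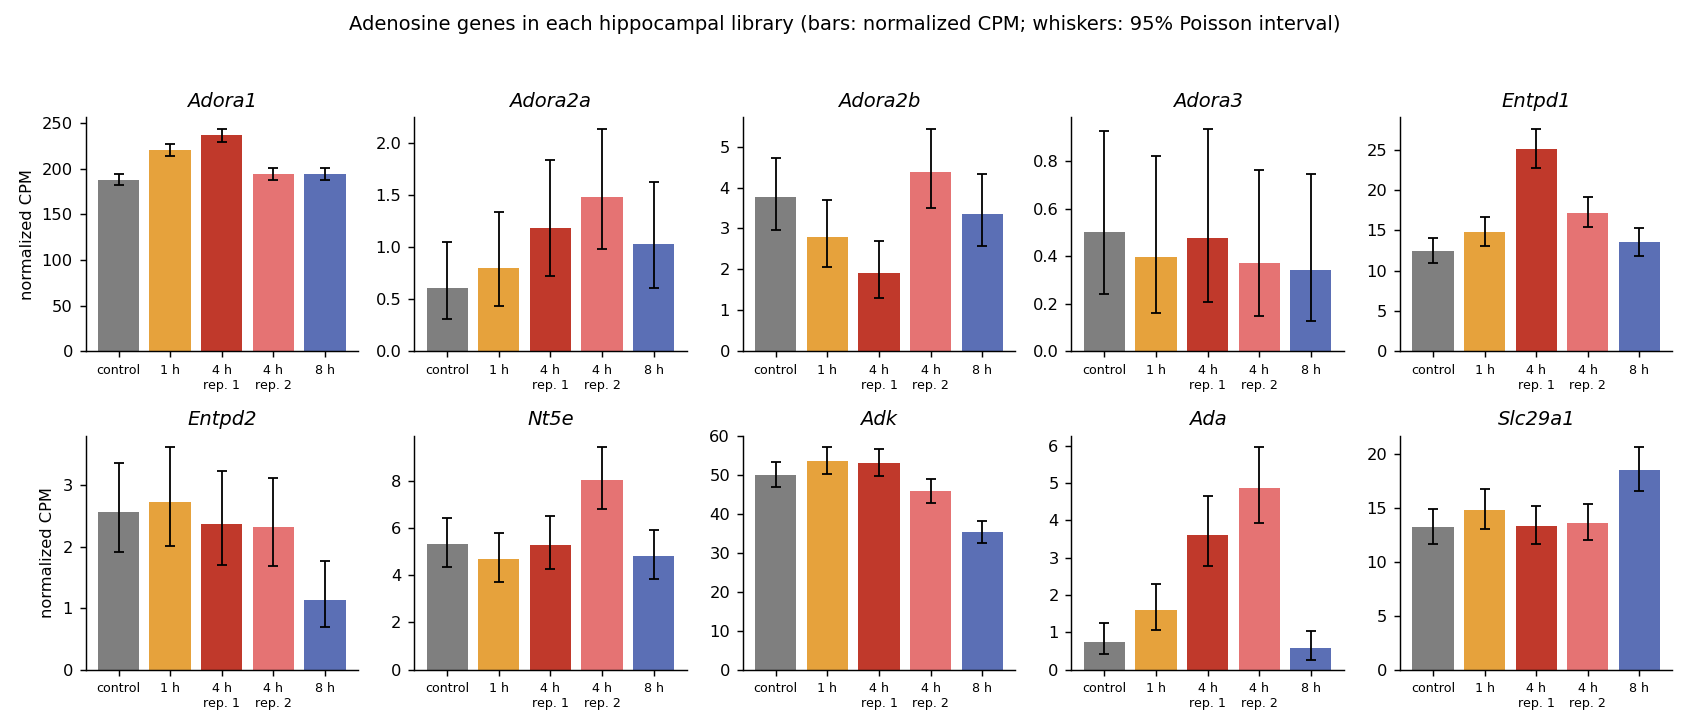
Normalized CPM of each of the 10 genes in the control, 1 h, 4 h (replicates 1 and 2) and 8 h libraries, with each axis starting at 0 and whiskers for the 95% Poisson interval. Ada reads 0.754, 1.59, 3.62, 4.87 and 0.570 from left to right, and Adk is lowest at 8 h with 35.4.

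Adk (ENSMUSG00000039197.10, chromosome 14 from 21052574 to 21448569 on the plus strand, 10 transcripts and 8526 bases of exon) encodes adenosine kinase, the main enzyme of adenosine clearance in the adult brain and there chiefly a protein of astrocytes. Counts of 997 (control), 943 (1 h), 896 (4 h, replicate 1), 866 (4 h, replicate 2) and 620 (8 h) correspond to 50.1, 53.7, 53.2, 45.8 and 35.4 normalized CPM. The first 4 libraries lay close together, with the 4 h replicates on both sides of the control, and the 8 h library was below all of them. With library size alone, replicate 1 turned from 1.06 to 0.941 times the control. The ratio at 8 h was 0.706 (0.638 to 0.781), while the intervals of the other libraries include 1. At 8 h the log2 fold change was -0.50 ± 0.23 (SE), with an adjusted p of 1 from the quasi-likelihood test of edgeR, Benjamini-Hochberg adjusted, and it lay between -0.51 and -0.48 over the 7 alternatives that can move it. The 8 astrocyte markers, with Slc1a2 the most abundant and none at 0, summed to 4303 (control), 4548 (1 h), 5377 and 4969 (4 h, replicates 1 and 2) and 4741 (8 h) normalized CPM. At 8 h single markers lay on both sides of the control, with Gfap at 587 against 221 normalized CPM and Gjb6 at 43.8 against 58.0. The part of astrocytes in the Adk values was not tested.

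Ada (ENSMUSG00000017697.3, chromosome 2 from 163726584 to 163750239 on the minus strand, 2 transcripts and 2002 bases of exon) encodes adenosine deaminase, which converts adenosine to inosine. Counts of 15 (control), 28 (1 h), 61 (4 h, replicate 1), 92 (4 h, replicate 2) and 10 (8 h) correspond to 0.754, 1.59, 3.62, 4.87 and 0.570 normalized CPM. Both 4 h libraries were high, the 1 h library lay between them and the control, and the 8 h library was at the level of the control. The ratio to the control was 2.11 at 1 h (1.09 to 4.26), 4.81 in replicate 1 (2.70 to 9.11), 6.46 in replicate 2 (3.72 to 12.0) and 0.757 at 8 h (0.304 to 1.80). The replicates did not differ beyond counting error, with replicate 2 at 1.34 times replicate 1 (0.961 to 1.89).

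The log2 fold change of Ada was 0.98 ± 0.61 (SE) at 1 h, 2.33 ± 0.56 at 4 h and -0.34 ± 0.67 at 8 h. At 4 h it was higher in 2 of 2 libraries, with an adjusted p of 0.288 from the quasi-likelihood test of edgeR, Benjamini-Hochberg adjusted, and so did not pass the threshold. Over 6 alternative tests this p ranged from 0.00241 to 0.373, and the log2 fold change from 2.11 to 2.53 over 9 settings. The lowest p came from edgeR without a filter on low counts. Markers of blood leukocytes, another source of Ada, summed to 33.0 (control), 28.3 (1 h), 47.9 and 32.2 (4 h, replicates 1 and 2) and 39.5 (8 h) normalized CPM, but most of this sum is Hba-a1 of red cells (27.7, 21.1, 40.1, 25.6 and 30.8 normalized CPM). Ptprc, the common leukocyte antigen, had 3.82, 5.40, 5.82, 5.08 and 6.33 normalized CPM, above the control in all 4 kainic acid libraries. S100a9 was also above it in all 4. In contrast, Ccr2, S100a8, Cd79a, Ly6c2 and Hba-a1 were below the control in some of these libraries. None of the 8 was at 0 in all libraries, but the T cell marker Cd3e had 1 count in the 1 h library and 0 counts in the others. Ptprc was highest at 8 h, where Ada was lowest. The part of leukocytes in the Ada values was not tested.

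Set against each other per kb of exon, Adk exceeded Ada 15.6-fold in the control (95% interval 9.42 to 28.0), 7.91-fold at 1 h (5.44 to 12.0), 3.45-fold in replicate 1 (2.66 to 4.55) and 2.21-fold in replicate 2 at 4 h (1.78 to 2.77), and 14.6-fold at 8 h (7.86 to 30.5). The RNA of the kinase was thus above that of the deaminase in every library, and the distance was smallest at 4 h, where the intervals of both replicates lie below that of the control. They carry no spread between animals.

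Slc29a1 (ENSMUSG00000023942.15, chromosome 17 from 45585200 to 45599606 on the minus strand, 25 transcripts and 4008 bases of exon) encodes the equilibrative nucleoside transporter ENT1, which lets adenosine pass the membrane in either direction. Counts of 263 (control), 260 (1 h), 224 (4 h, replicate 1), 257 (4 h, replicate 2) and 324 (8 h) correspond to 13.2, 14.8, 13.3, 13.6 and 18.5 normalized CPM. The 8 h library was the highest and the others lay within each other's intervals. The 8 h ratio was 1.40 (1.19 to 1.65) and the log2 fold change 0.48 ± 0.29 (SE), with an adjusted p of 1 from the quasi-likelihood test of edgeR, Benjamini-Hochberg adjusted. At 4 h the log2 fold change of 0.03 turned to -0.10 with scaling by library size alone. The antisense gene Gm17080 overlaps 6.86% of the exon length and had at most 2 counts.

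Ada and Entpd1 were the 2 enzyme genes with intervals above 1 in both 4 h libraries, and their RefSeq promoters (windows of 300 bases around the start, build GRCm38.p6) are shown for that reason. Motifs were chosen after the values were seen and searched on both strands: the cAMP response element (TGACGTCA), its half-site (TGACG, a part of the full element), the AP-1 site (TGANTCA) and the GC box (GGGCGG). Of 32851 promoters of 300 bases, 1.79% held the full element, 20.8% the half-site, 7.81% the AP-1 site and 35.7% the GC box. The Ada promoter lies at chr2:163750190-163750489 on the minus strand, with capitals for the GC box. The Entpd1 promoters lie at chr19:40612116-40612415 and chr19:40659520-40659819 on the plus strand, with capitals for the half-site on either strand.
Ada: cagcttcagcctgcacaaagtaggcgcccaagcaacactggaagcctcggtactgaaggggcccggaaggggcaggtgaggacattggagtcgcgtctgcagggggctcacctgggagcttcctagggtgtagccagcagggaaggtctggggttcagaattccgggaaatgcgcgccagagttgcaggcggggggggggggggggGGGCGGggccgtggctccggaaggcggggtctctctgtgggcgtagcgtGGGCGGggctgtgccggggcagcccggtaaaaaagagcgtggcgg
Entpd1 first start: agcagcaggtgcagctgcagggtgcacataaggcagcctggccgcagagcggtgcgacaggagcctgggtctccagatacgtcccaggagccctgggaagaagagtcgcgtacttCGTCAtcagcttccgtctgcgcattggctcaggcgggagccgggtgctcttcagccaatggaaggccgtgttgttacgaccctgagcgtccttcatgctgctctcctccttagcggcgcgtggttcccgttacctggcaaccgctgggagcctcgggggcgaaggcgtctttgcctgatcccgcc
Entpd1 second start: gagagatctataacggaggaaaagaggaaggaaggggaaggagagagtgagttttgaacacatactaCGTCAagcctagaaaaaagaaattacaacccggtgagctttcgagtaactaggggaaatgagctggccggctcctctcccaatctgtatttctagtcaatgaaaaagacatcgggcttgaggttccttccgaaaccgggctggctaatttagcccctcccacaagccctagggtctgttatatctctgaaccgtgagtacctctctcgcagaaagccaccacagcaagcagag
The Ada window held the GC box and none of the other motifs, and both Entpd1 windows held the half-site only. Of the 19 windows of the 9 genes with a promoter in the table, 0 held the full element, 4 the half-site (in Adk, Entpd1 and Slc29a1), 3 the AP-1 site (in Adora1, Adora3 and Entpd2) and 12 the GC box (in 7 genes). A match is a description, not a site or a cause, and no match says only that these letters are not in this window.

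The profiles of Ada and Entpd2 spanned the widest range of log2 ratios among the genes here with at least 50 counts in a library. Among 14326 genes with such counts, those nearest to Ada by Euclidean distance over the 4 log2 ratios to the control (prior count 2) were Itgad, an integrin subunit (distance 0.771), and Wnt3, a secreted signalling protein (0.925). Ada itself had log2 ratios of 0.98 at 1 h, 2.11 and 2.53 in replicates 1 and 2 at 4 h, and -0.34 at 8 h, and Itgad had 0.74, 1.62, 2.34 and -0.85. Nearest to Entpd2 were Nrsn2, a neuronal membrane protein (0.126), and Mthfd1l, an enzyme of mitochondrial folate metabolism (0.223). Entpd2 had log2 ratios of 0.09, -0.10, -0.13 and -1.10, and Nrsn2 had -0.01, -0.18, -0.15 and -1.08.

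**Figure D5:**
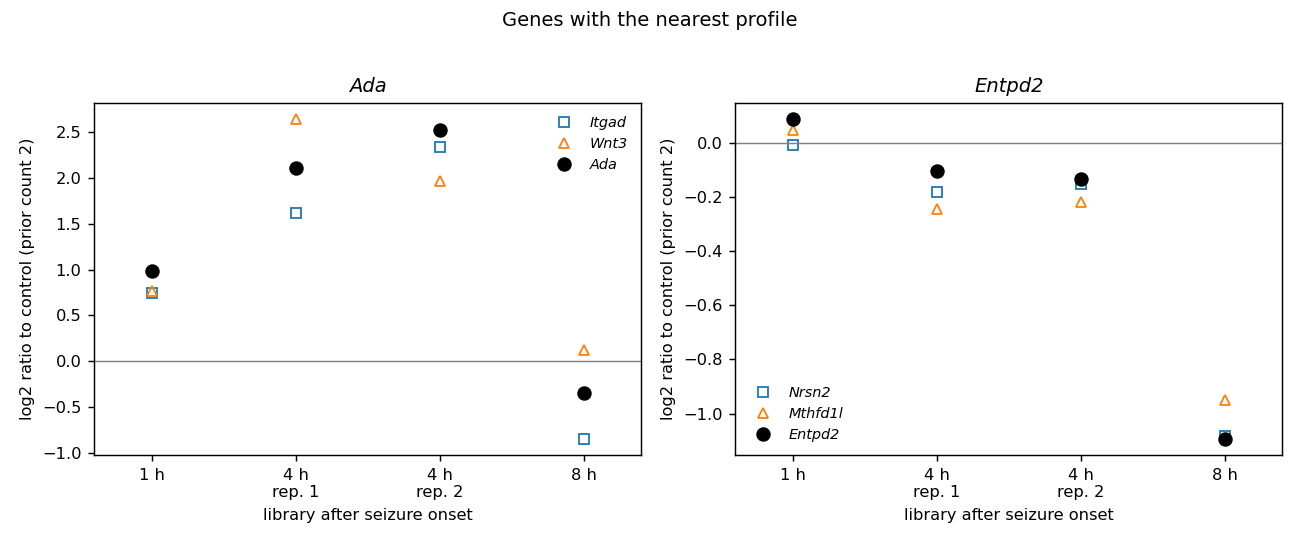
Log2 ratio to the control (prior count 2) in the 4 kainic acid libraries for Ada and Entpd2 (filled circles) and the 2 genes nearest to each (open symbols). Ada and its neighbours are highest in the 4 h libraries (Ada at 2.11 and 2.53), and Entpd2 and its neighbours are lowest at 8 h (Entpd2 at -1.10).

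Around these genes, 8 lists of the wider purine pathway held 85 genes, of which 73 passed the expression filter: other ectonucleotidases, intracellular 5'-nucleotidases, other nucleoside transporters, purine salvage and deamination, P2X and P2Y receptors for ATP and other nucleotides, ATP release, and G protein and cyclase coupling. edgeR called 0 of the 73 at each time. At least 1.5-fold above the control were 4 genes at 1 h (5.48%), 5 in both libraries at 4 h (6.85%) and 5 at 8 h (6.85%), each a smaller share than among all genes tested. At least 1.5-fold below were 5 (6.85%), 3 (4.11%) and 10 (13.7%), beside 9.2%, 6.28% and 8.94% of all genes, so that the share at 8 h was the larger. The median log2 fold change of the 73 genes was -0.07, -0.13 and -0.14 at 1, 4 and 8 h, beside -0.01, 0.01 and 0.01 over all genes.

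In 4 of the 8 lists, 1 gene with at least 50 counts in a library had a fitted log2 fold change of 1 or more in size, with both libraries on the same side of the control at 4 h. Nt5c1a, a cytosolic 5'-nucleotidase that makes adenosine from AMP inside the cell, had 4.07 (control), 5.92 (1 h), 26.3 and 18.2 (4 h, replicates 1 and 2) and 9.47 (8 h) normalized CPM. Its 4 h libraries were the highest, with a log2 fold change of 2.42 and an adjusted p of 0.245 from edgeR with Benjamini-Hochberg adjustment. Entpd7, an intracellular nucleotidase, had 11.5, 11.2, 29.6, 24.6 and 11.5 normalized CPM in the same order, with both 4 h libraries above the rest. P2ry12, the ADP receptor of microglia, had 31.9, 29.7, 13.9, 17.8 and 20.8 normalized CPM, with both 4 h libraries the lowest. Calhm2, of a family of ion channels some of which release ATP, had 3.97, 3.58, 1.07, 1.80 and 3.88 normalized CPM, again lowest in both 4 h libraries. At 4 h the adjusted p from edgeR with Benjamini-Hochberg adjustment was 0.288 for Entpd7, 0.319 for P2ry12 and 0.380 for Calhm2, so all 4 failed the threshold.

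By list, the median log2 fold change at 4 h ran from -0.59 for the 4 other nucleoside transporters tested to 0.15 for the 6 P2X receptors. Slc29a4 was at 5.40 and 13.5 normalized CPM and Slc28a3 at 0 and 0.846 in replicates 1 and 2, beside 15.3 and 1.06 in the control. Slc29a2 differed the other way (6.53 and 4.23, control 7.59), and Slc29a3 was similar in both (4.63 and 4.92, control 6.03). The median of these transporters thus joins replicates that differ, and it was not computed for each of them. The 19 genes of G protein and cyclase coupling, through which the receptors act, had medians of -0.03, -0.12 and -0.24 at 1, 4 and 8 h. At 1 h 0 of 19 were past 1.5-fold (all genes: 10.9% higher and 9.2% lower). At 4 h 0 of 19 were past it in both libraries (all genes: 10.1% and 6.28%). At 8 h 1 was higher and 1 lower (all genes: 14.1% and 8.94%). Summed ATP release genes, with the astrocyte connexin Gja1 the most abundant and Calhm1 at 0 in all libraries, gave 267, 247, 254, 261 and 162 normalized CPM in the order control, 1 h, replicate 1, replicate 2 and 8 h. The lower sum at 8 h is mostly Gja1 (98.6 against 195 normalized CPM in the control), and the median log2 fold change of the list there was 0.11. Enpp2, an ectoenzyme abundant in choroid plexus, set the sum of the other ectonucleotidases, which was 2157, 1162, 342, 2489 and 1785 normalized CPM and took the same order of libraries as the choroid plexus markers. Entpd4 was at 0 in all libraries.

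The remaining marker lists were also uneven between libraries. In the order control, 1 h, replicate 1, replicate 2 and 8 h, oligodendrocyte precursors (4 markers, Pdgfra the most abundant) summed to 139, 153, 141, 173 and 128 normalized CPM and mural cells (6 markers, Rgs5) to 135, 132, 127, 141 and 120. Meningeal fibroblasts (5 markers, Dcn) gave 76.3, 44.4, 75.2, 73.7 and 65.3, and genes of hippocampal regions (8 markers, Zbtb20) gave 849, 872, 1009, 800 and 1032. No marker of these lists was at 0. The hippocampal genes did not go 1 way: Dsp, C1ql2 and Bcl11b were at least 1.5-fold lower in both 4 h libraries and Prox1 at least 1.5-fold higher.

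These values describe RNA of whole hippocampus and not protein, enzyme activity or adenosine itself. The control, 1 h and 8 h groups had 1 library each, so a difference between times rests on single libraries. The 4 h pair differed in the RNA of choroid plexus markers and of seizure-response genes. It also differed in the share of reads on no gene (33.1% in replicate 1 and 25.3% in replicate 2, control 24.7%). The SD of the log2 ratio between the 4 h replicates over all genes was 0.66. Counts per gene add up all transcripts and do not tell apart the isoforms of Adk or Slc29a1. Levels, ranks and ratios per kb use the exon length over all annotated transcripts, which can differ from that of the transcripts expressed. Their intervals do not cover this. Ada, Adora2a and Adora3 had at most 15 counts in the control, and their ratios carry wide intervals. Low and overlapping genes were not resolved further with these counts.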

How the data were processed

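Hippocampal RNA of 5 libraries was analysed at the gene level. The authors made stranded total-RNA libraries, aligned paired-end reads with STAR (2.5.1b on GRCm38.p4, per the submitters' processing notes) and deposited raw read counts per gene from HTSeq, and gave no HTSeq version, strand setting or annotation release. Reads on no gene (24.7% to 33.1%), ambiguous reads (1.26% to 1.52%) and reads aligned more than once (9.67% to 11.6%) were left out.

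Counts were filtered (filterByExpr), scaled (TMM) and tested with the quasi-likelihood test of edgeR 4.0.16 in R 4.3.3, with 4 groups or with all kainic acid libraries as 1 group (3 residual degrees of freedom), a prior count of 2 and Benjamini-Hochberg adjustment over 19768 genes (threshold 0.05). The biological coefficient of variation was 0.238. As alternatives, scaling used median-of-ratios factors or library size alone, filtering was dropped or set to at least 10 counts in every library, and the other settings were DESeq2 1.42.0, limma-voom (limma 3.58.1), a prior count of 0.125, a 2-fold mark, and leaving out each 4 h replicate. The script was tested on simulated data. Exon lengths and positions are from GENCODE M21, and the length counts each exon base of all annotated transcripts of a gene once. Plots were made in matplotlib 3.10.9 under Python 3.11.15.

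All 10 genes are named. Other pathway genes are named where a library had at least 50 counts and the fitted log2 fold change was at least 1 in size (at 4 h with both libraries on the same side of the control), at most 6 per list. Some items withheld for evaluation are not reported here. The genes and lists were chosen with earlier results of these data known.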

Additional observations from a re-analysis of the deposited data

Results flagged for a closer look

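Ada was above the control in both 4 h libraries and within counting error of it at 8 h, with a log2 fold change 2.68 higher at 4 h than at 8 h. The difference was not tested, and both values share the control library. Entpd2 was just below the control in both 4 h libraries and just above it at 1 h, a difference of -0.21 (4 h minus 1 h, log2) that was not tested and lies within counting error.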

How the results depend on the processing

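No paired analysis was possible because only the 4 h group has numbered replicates. The number of genes called by edgeR, 0, 1 and 0 at 1, 4 and 8 h, became 57, 237 and 22 with library size alone, and 285, 1300 and 279 with no filter on low counts. With at least 10 counts in every library it was 1 at 1 h and 0 at 4 h. DESeq2 called 56, 238 and 33, and 13 with the 4 kainic acid libraries together in place of 0. At 4 h, median-of-ratios factors and limma-voom called 0. The cause was not tested. Without a filter, 1 of the 10 adenosine genes was called at 4 h, beside 3.97% of 32732 genes tested there: Ada (log2 fold change 2.32, adjusted p 0.00241 from edgeR with Benjamini-Hochberg adjustment). At a 2-fold mark, 1 gene in place of 2 was higher at 4 h (4.96% of all genes) and 0 in place of 1 at 8 h (6.79%). With a single 4 h library, an alternative chosen after seeing the data, 3 genes were at least 1.5-fold higher in either (21.1% of all genes in replicate 1 and 13.8% in replicate 2), and from 0 (without replicate 1, 10.7% of all genes) to 1 (without replicate 2, Adora2b, 16.8%) were lower. Library size alone moved the median of all genes at 4 h to -0.11 and turned Slc29a1 there to -0.10. It also turned ratios to the control at 4 h, Adk in replicate 1 from 1.06 to 0.941, Adora1 in replicate 2 from 1.04 to 0.983, and Slc29a1 from 1.01 to 0.891 in replicate 1 and from 1.03 to 0.977 in replicate 2, and it lowered Adora1 from 1.17 to 1.12 at 1 h and from 1.26 to 1.12 in replicate 1. The log2 fold change of Nt5e over the 4 kainic acid libraries, 0.10, was 0.13 without replicate 1 and -0.11 without replicate 2. Without a 4 h replicate the 4-group fit has no residual degrees of freedom, and values there carry no test. Depth limits Adora2a, Adora3 and Ada most, with 12, 10 and 15 counts in the control.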
